A study of Mus musculus with 4 samples.

Results

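Kidney cells at day 28 after ischemia-reperfusion (I/R) injury were compared with kidney cells at day 14, both without the probiotic L. casei Zhang (Lac.z). Both groups consisted of male C57BL/6 mice that had undergone I/R, in which the blood flow of the kidney is stopped and then let back in, and neither group received Lac.z. The comparison used 2 of the 4 droplet single-cell libraries of the series, 1 library per day, and both had the same software version (3.1.0) in their matrix headers. A barcode was kept if it had 200 or more genes and no more than 50% of its unique molecular identifiers (UMIs) came from mitochondrial genes, which left 9572 barcodes at day 14 and 14138 at day 28, out of 37839 kept in the whole series. The number of animals per library, any gavage given in place of Lac.z and the time of day of sampling were not given in the sources used here. Uninjured kidneys were not analysed here, so the values do not show how far either day was from a normal level.

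The proximal tubule reabsorbs most of the filtered glucose, amino acids and phosphate, burns fatty acids for energy, and is the segment most damaged by I/R. Injured proximal cells lose transporter expression, turn on Havcr1 (kidney injury molecule 1), Vcam1 and keratins, and can re-enter the cell cycle to replace lost neighbours. Macrophages, neutrophils and lymphocytes enter the injured kidney and clear debris, and part of them leave again as the tissue repairs.

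With 1 library a day, differences have no replicate check and no test across libraries could be run, and a difference between days cannot be told apart from a difference between animals or preparations. Intervals are exact 95% intervals and cover counting error only, and "higher" and "lower" stand for a change of 1.5-fold or more, which is a rule of size. The raw libraries held 11203 and 15583 barcodes. Kept barcodes had a median of 6463 UMIs at day 14 and 5132 at day 28, and a median mitochondrial share of 13.1% and 17.1%. The libraries shared 37 barcode sequences, of which 32 were kept in both and 16 fell in the same cell class in both.

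Cells were assigned to 16 classes by raw UMIs of marker genes. A barcode that passed several gates went to the class with a marker sum at least 3 times every other gate passed, and otherwise was left out as mixed, which affected 278 barcodes at day 14 and 421 at day 28. A further 504 and 793 barcodes passed no gate. The gates fix high levels of a class's own markers in advance, so marker sums are a description of the classes and no independent check. Macrophage markers summed to 16977 and 17988 UMIs per 1000000 (CPM) in gated macrophages, against 17.4 and 8.52 CPM in proximal tubule cells. T cell markers summed to 5911 and 6315 CPM in gated T cells, against 11.6 and 11.3 CPM in proximal tubule cells. Other pairs were less far apart. Distal convoluted tubule markers summed to 1577 and 1696 CPM in principal cells, and proximal tubule markers to 1119.9 and 3088.5 CPM in neutrophils. Monocyte markers summed to 585 and 626 CPM in T cells.

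The kidney at day 28 held a smaller share of immune cells of nearly every kind. All immune classes together made up 18.8% (18.0 to 19.6) of kept barcodes at day 14 and 8.38% (7.93 to 8.85) at day 28, 2.24-fold lower (2.08 to 2.41). Tubule classes made up 70.0% and 80.9%. Since shares add up to 100, fewer immune cells and a larger yield of tubule cells cannot be told apart here.

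**Figure D1:**
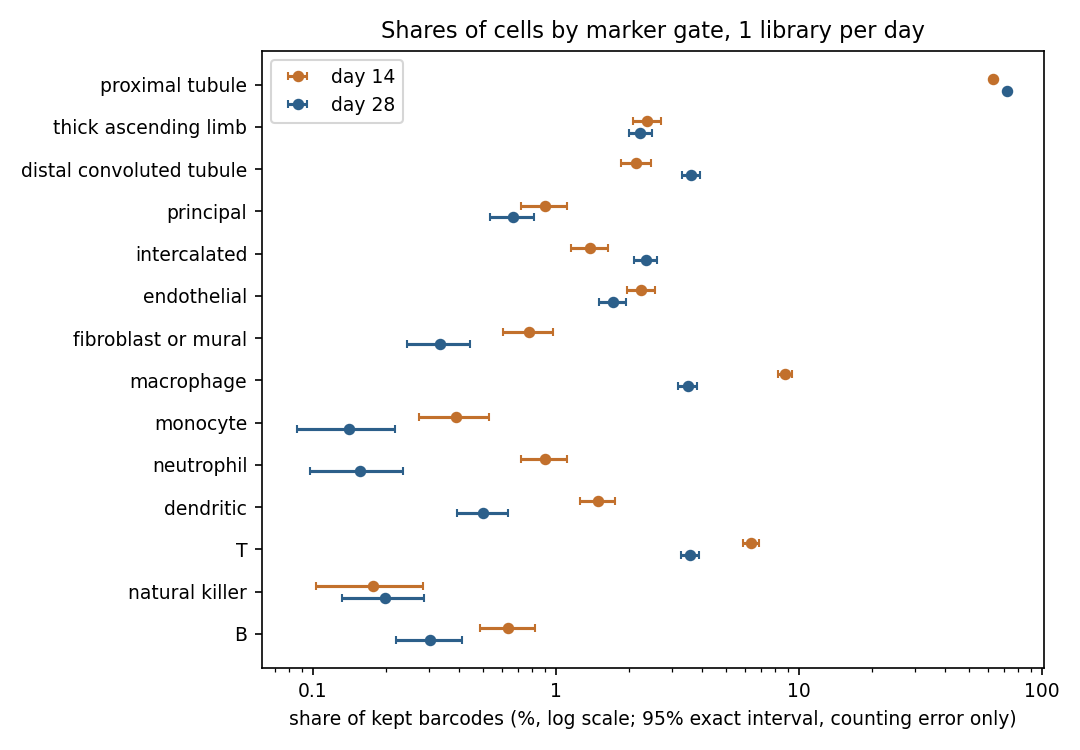
Share of kept barcodes in each marker-gated class (x axis, percent, log scale) at day 14 (orange) and day 28 (blue), with exact 95% intervals for counting error and 1 library per day. Macrophages went from 8.79% to 3.49% and neutrophils from 0.898% to 0.156%, while distal convoluted tubule and intercalated cells had larger shares at day 28.

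Neutrophils, the short-lived first responders of acute inflammation, had the largest ratio among the immune classes. They were 86 cells (0.898%) at day 14 and 22 cells (0.156%) at day 28, 5.77-fold lower (3.58 to 9.69). Dendritic cells were 1.49% and 0.502%, 2.97-fold lower (2.22 to 4.01). Monocytes numbered 37 and 20, 2.73-fold lower (1.55 to 4.97). Macrophages, the most abundant immune class at day 14, went from 841 cells (8.79%, 8.23 to 9.37) to 493 cells (3.49%, 3.19 to 3.80), 2.52-fold lower (2.25 to 2.82). B cells were 2.10-fold lower (1.40 to 3.17). T cells, with 609 cells (6.36%) and 506 cells (3.58%), were 1.78-fold lower (1.58 to 2.00), the smallest ratio among the immune classes called lower. Natural killer cells were 17 and 28 cells, a ratio of 1.12 (0.589 to 2.17).

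Among immune cells alone, the makeup leaned toward lymphocytes at day 28. T cells were 33.9% (31.7 to 36.1) of immune cells at day 14 and 42.7% (39.9 to 45.6) at day 28, a ratio of 1.26, and at the later day this interval overlapped that of macrophages (41.6%, 38.8 to 44.5), which had been 46.8% at day 14. Natural killer cells took a 2.50-fold higher part of the immune cells (1.32 to 4.87; 0.945% and 2.36%). Neutrophils took a 2.58-fold lower part (1.60 to 4.32). The macrophage, dendritic, monocyte and B cell parts stayed within 1.5-fold.

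Among the other cells, 2 distal nephron classes and the stroma moved. Distal convoluted tubule cells, which reabsorb sodium chloride and magnesium, were 205 cells (2.14%) and 511 cells (3.61%), 1.69-fold higher (1.43 to 1.99). Intercalated cells, which secrete acid or base in the collecting duct, were 132 (1.38%) and 332 (2.35%), 1.70-fold higher (1.39 to 2.10). As parts of the tubule cells alone these ratios were 1.46 and 1.47, and principal cells were 1.56-fold lower (1.15 to 2.12). Fibroblast or mural cells were 74 (0.773%) and 47 (0.332%), 2.33-fold lower (1.59 to 3.43). Proximal tubule cells (63.2% and 72.1%, ratio 1.14), thick ascending limb cells (2.37% and 2.23%), principal cells (0.898% and 0.665%) and endothelial cells (2.25% and 1.72%) stayed within 1.5-fold. The distal convoluted tubule ratio was 2.28 with a mitochondrial limit of 25%, and the median mitochondrial share of these cells was 15.9% at day 14 and 5.96% at day 28.

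In gated proximal tubule cells (6047 and 10190), most injury genes were lower at day 28. Injured cells with too few proximal marker UMIs to pass the gate are not part of these values. Of 12789 measured genes (50 or more UMIs in the 2 libraries combined), 7.91% were lower and 3.43% higher by the rule of size, and the median log2 ratio was -0.02. Of 31 measured members of the tubular injury list, 25 were lower and 0 higher, with a median log2 ratio of -1.26. Their summed level was 4402 CPM at day 14 and 1584 CPM at day 28.

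Havcr1, a membrane receptor for dying cells and the best known marker of the injured proximal tubule, had 1806 UMIs at day 14 and 139 at day 28. That was 33.2 and 1.87 CPM, 17.8-fold lower (14.9 to 21.3). A Havcr1 UMI was seen in 5.46% and 0.442% of the cells, and in 0.595% of macrophages at day 14. Vcam1, an adhesion molecule kept on by proximal cells that fail to recover, had 28.3 and 3.41 CPM, 8.28-fold lower (7.25 to 9.50). A Vcam1 UMI was seen in 5.47% and 0.785% of the cells, against 0.657% and 0.395% of T cells.

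Secreted and acute phase products of the injured tubule were also lower. Spp1 (osteopontin), by far the most abundant member of the list, had 2867 and 781 CPM and was seen in 85.1% and 68.0% of cells, against 18.4% and 9.29% of T cells. C3, the central complement protein, had 65.7 and 13.4 CPM, and the copper carrier Cp had 35.7 and 6.54 CPM. The fibrinogen chains Fga, Fgb and Fgg were 2.23-fold, 2.24-fold and 2.83-fold lower. Ccl2, which attracts monocytes, had 22.6 and 1.25 CPM, but 1 barcode held 44.9% of its UMIs.

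Keratins and cytoskeletal genes of injured epithelium were lower too. Krt8 had 285 and 161 CPM, Krt18 11.8 and 5.39 CPM, and Vim 13.1 and 7.91 CPM. Krt20 had 97 and 20 UMIs, 6.63-fold lower (4.07 to 11.3). Sox9, a transcription factor of regenerating tubule, had 5.34 and 2.14 CPM. The 6 members within 1.5-fold were Tpm1, Itgb6, Plin2, Clu, Lcn2 (1.16 and 1.28 CPM) and Cdkn1a, which encodes the cell cycle inhibitor p21 (21.5 and 26.0 CPM). For Clu and Lcn2, 1 barcode held 29.7% and 36.7% of the UMIs. Without the members dominated by 1 barcode, the list had 24 of 28 genes lower.

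**Figure D2:**
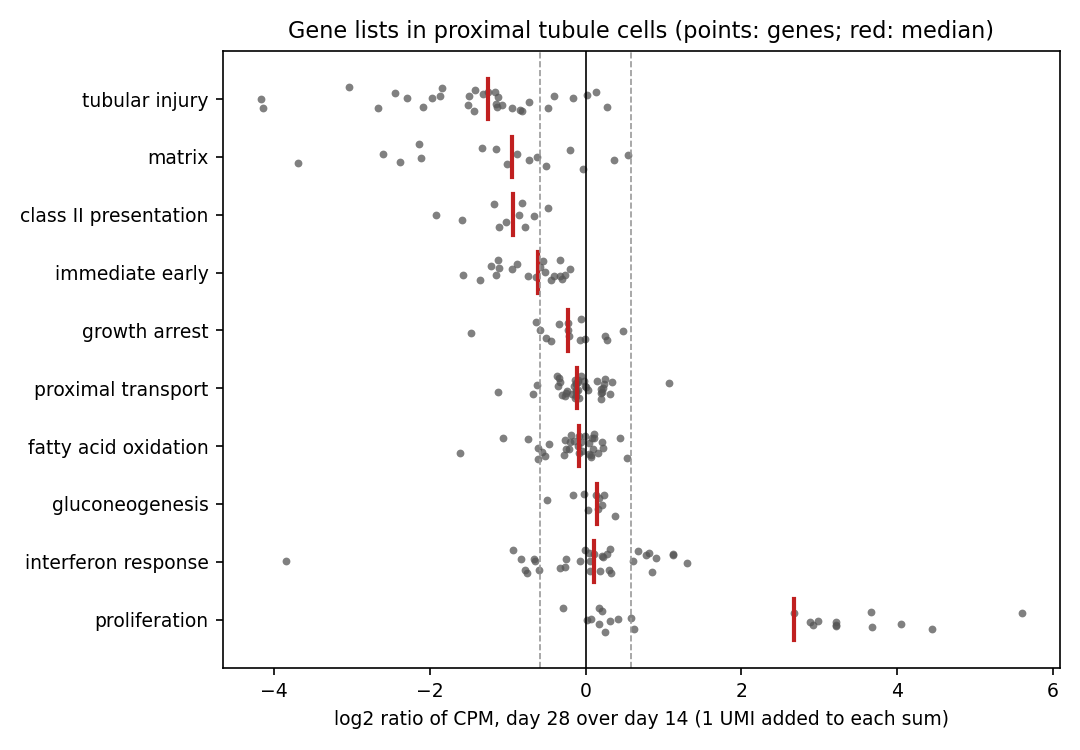
Log2 ratio of CPM, day 28 over day 14 (x axis), of each measured gene of 10 lists (rows) in proximal tubule cells, with a red bar at the list's median and dashed lines at 1.5-fold. Injury genes lie to the left (median -1.26), transport and metabolism genes around 0, and the proliferation list spreads far to the right (median 2.68).

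Cells with at least 2 Havcr1 UMIs were 174 of 6047 at day 14 (2.88%, 2.47 to 3.33) and 16 of 10190 at day 28 (0.157%, 0.0898 to 0.255), 18.3-fold lower (11 to 32.8). After thinning every cell to 2000 UMIs, which left out 315 and 1284 shallower cells, the shares were 0.960% and 0.0449%. No macrophage or T cell had 2 Havcr1 UMIs, which, with a count of 3 as the limit that 0 allows, leaves room for shares of up to 0.357% and 0.609% in macrophages and 0.493% and 0.593% in T cells. Median depths were 6525 and 5413 UMIs in proximal tubule cells, 9287 and 5292 in macrophages and 4388 and 3235 in T cells. Cells with at least 10 Havcr1 UMIs numbered 42 and 2. For Vcam1, cells with at least 2 UMIs were 2.30% (1.94 to 2.71) and 0.363% (0.256 to 0.50), 6.33-fold lower (4.38 to 9.36), against 0 T cells.

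The 16 Havcr1 cells of day 28 give little precision. Their injury list, which includes Havcr1 itself, summed to 25854 CPM at day 14 and 20548 CPM at day 28. In cells without a Havcr1 UMI it summed to 3051 and 1498 CPM, a contrast fixed in part by the choice of cells. The proximal transport list of the Havcr1 cells summed to 8339 and 8262 CPM, against 10230 and 9821 CPM in the cells without. Their proximal gate markers summed to 5486 and 3192 CPM, and Slc5a2, a glucose carrier of the early segment, was seen in 30.5% and 50.0% of them. A Vcam1 UMI was seen in 46.0% and 56.3% of them. They were deeper than other proximal cells, with medians of 14382.5 and 11099.5 UMIs, and had lower mitochondrial shares (medians 9.83% and 7.66%).

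In the 5495 and 10078 proximal tubule cells without any Havcr1 or Vcam1 UMI, 21 of 28 measured injury genes were lower and 1 higher, with a median log2 ratio of -0.85. This subset was chosen after the values were seen, it is defined by genes that differed between the days, and a count of 0 at these depths does not show that a cell lacks Havcr1 or Vcam1.

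**Figure D3:**
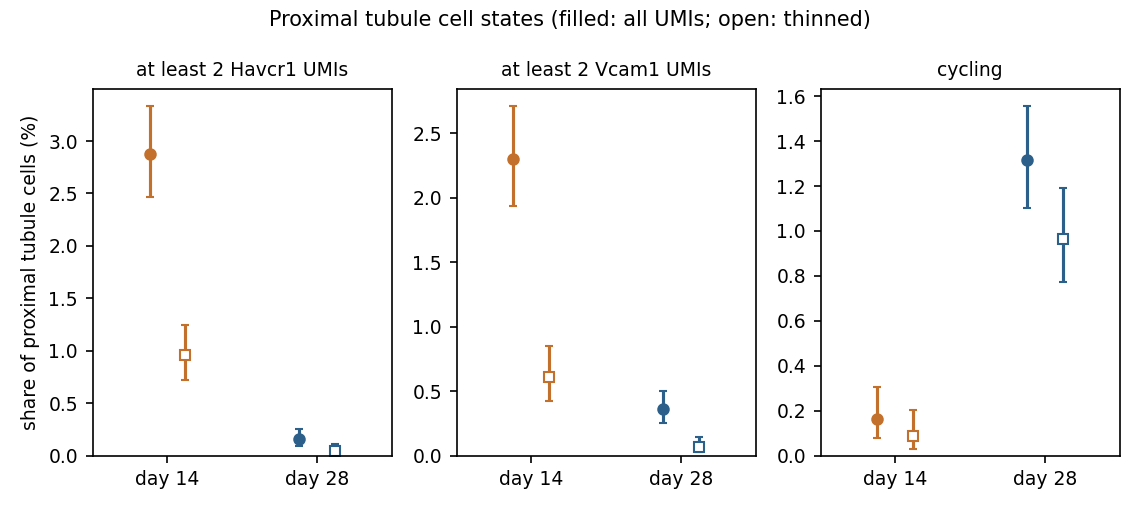
Share of proximal tubule cells (y axis, percent) with at least 2 Havcr1 UMIs, at least 2 Vcam1 UMIs, or in the cycling state, at day 14 (orange) and day 28 (blue), with exact 95% intervals. Filled circles use all UMIs and open squares cells thinned to 2000 UMIs; the first 2 shares were lower and the cycling share was higher at day 28 (0.165% and 1.32%).

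Genes of cell division formed the far end of the list of higher genes in proximal tubule. The 8 named genes with the highest ratios all act in mitosis or its preparation. Ccnb1 (cyclin B1) had 4 UMIs at day 14 and 330 at day 28, 60.4-fold higher (23.4 to 223). Hmmr, a spindle protein, had 15 and 864 UMIs (0.275 and 11.6 CPM), 42.1-fold higher (25.4 to 75.6). Pbk, a mitotic kinase, Cenpf, a kinetochore protein, and Prc1, which bundles spindle microtubules, were 26.1-fold, 22.6-fold and 21.7-fold higher. Ube2c was 17.2-fold higher, and Top2a, which untangles DNA, had 0.845 and 11 CPM, 13.1-fold higher (9.70 to 18.0). Aurka was 12.9-fold higher (7.05 to 26.3). The sizes of 4 of these ratios were smaller after thinning, which also left out shallower cells and lowered day 14 counts that were already few. The part of depth was not tested. As reported, the log2 ratios of Ccnb1, Hmmr, Pbk and Cenpf were 5.60, 5.31, 4.54 and 4.44. Thinned to 2000 UMIs they were 3.43, 4.02, 3.07 and 3.37, still past the rule.

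At day 28 each of these 8 genes was seen in few cells, from 0.834% (Aurka) to 1.32% (Hmmr). A cell was called cycling with at least 3 UMIs over at least 2 of 6 genes (Mki67, Top2a, Ccnb1, Cdk1, Birc5, Cenpf). Such cells were 10 of 6047 at day 14 (0.165%, 0.0793 to 0.304) and 134 of 10190 at day 28 (1.32%, 1.10 to 1.56), 7.95-fold higher (4.19 to 17.0). Thinned to 2000 UMIs they were 0.0872% and 0.966%. In the day 5 library without Lac.z they were 28 of 1375 (2.04%). Proximal tubule cells of that library were deeper (median 7308 UMIs, against 5413 at day 28) and its software version was another. The 2.04% is therefore not ranked against the day 28 share.

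Of the proliferation list, 13 of 23 genes were higher in proximal tubule and 0 lower, with a median log2 ratio of 2.68, while several genes of DNA synthesis were not past the rule. Mki67 had 1.54 and 19.7 CPM. Pcna, the polymerase clamp, had 14.7 and 16.5 CPM, Tyms 15.4 and 18.2 CPM and Rrm1 6.72 and 7.6 CPM, all within 1.5-fold. Mcm5 was just past the rule at 1.82 and 2.81 CPM. Without the cycling cells, 7 of 22 measured genes were higher and the median log2 ratio was 0.15.

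Of the 134 cycling cells of day 28, none had a Havcr1 UMI, against 0.447% of the other proximal cells. At that share, a count of 0 does not set the 134 cycling cells apart. A Vcam1 UMI was seen in 2.99% of them and in 0.756% of the others. At day 14, 2 of the 10 cycling cells had a Havcr1 UMI, too few cells to set the days against each other. Their injury list summed to 2307 CPM at day 28, against 1570 CPM in the other proximal cells of that day. Slc34a1, the phosphate transporter of the proximal tubule, was seen in 98.5% of them, and Slc7a13, a marker of the late segment, in 8.21% against 22.7% of the other cells. Their transport list (6818 against 9873 CPM) and gate markers (5750 against 9423 CPM) were lower in level than in the other cells. A Cdkn1a UMI was seen in 29.9% of them and in 7.54% of the others. Their median depth was 9289 UMIs, 22 of the 134 were among the barcodes with the highest doublet scores, and T cell markers summed to 60.2 CPM against 10.3 CPM in the other cells. The part of these values in the comparison was not tested, but with the highest doublet scores left out 14 of 23 list genes were higher.

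Within gated proximal tubule cells, transport and energy genes differed little between the days. The gate required at least 6 UMIs over at least 3 of 9 markers, transporters among them. Cells with too little of these RNAs were left out of the class, so this result may be fixed in part by the gate. Of 40 proximal transport genes, 1 was higher and 3 were lower, with a median log2 ratio of -0.11. Slco1a1, an organic anion carrier, had 16.6 and 35.0 CPM, 2.11-fold higher (1.95 to 2.28). The lower ones included Mme (neprilysin; 48.1 and 22 CPM) and the glucose carrier Slc5a1 (38.6 and 24.0 CPM). None of 24 nuclear respiratory chain genes, 10 gluconeogenesis genes, 22 cholesterol synthesis genes or 6 genes of the early (S1) segment passed 1.5-fold.

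Of 34 fatty acid oxidation genes, 5 were lower and 0 higher. Pdk4, which spares glucose by braking pyruvate dehydrogenase, had 232 and 75.5 CPM, 3.07-fold lower (2.97 to 3.17). Cpt1a, which admits fatty acids to mitochondria, stayed within 1.5-fold (113 and 93.9 CPM), as did the regulator Ppargc1a (79.0 and 78.1 CPM). Of 13 glycolysis genes, 4 were lower, with Pfkfb3 at 3.27 and 0.994 CPM. Of 8 late (S3) segment genes, Slc22a7 was higher (10.2 and 18.3 CPM), while Slc22a13 (26.6 and 14.2 CPM) and Serpina1f (60.4 and 17.5 CPM) were lower; Serpina1f has near-identical paralogs and is uncertain.

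The other named genes at the low end in proximal tubule were Cxcl2, Csf1, Plat, Tubb2b, Gsta1 and Serpina6. Cxcl2, a neutrophil chemokine, had 28.0 and 2.26 CPM, 12.4-fold lower (10.6 to 14.6). Csf1, the growth factor of macrophages, was 7.52-fold lower (5.55 to 10.4), the protease Plat 9.61-fold lower (6.65 to 14.3) and the tubulin Tubb2b 7.28-fold lower (6.07 to 8.78). Gsta1, a glutathione transferase with close paralogs, was 12.9-fold lower (9.11 to 18.9). Serpina6, the corticosteroid carrier, had 207 UMIs in 0.281% of cells at day 14 and 0 at day 28, which is at least 94.3-fold lower when 3 counts over the class are taken as the floor, and allows up to 0.0294% of cells at day 28; 1 barcode held 18.8% of its UMIs.

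Immediate early genes, which respond to growth and stress signals within minutes and can be induced by tissue dissociation, were lower in proximal tubule at day 28. Of 20 measured, 11 were lower and 0 higher, with a median log2 ratio of -0.61. Klf4 had 289 and 97.2 CPM, Atf3 140 and 54.8 CPM, Fos 1418 and 650 CPM and Myc 42.0 and 18.0 CPM. The log2 ratio of Atf3 was -1.36, but -0.53, under the rule, in cells without any Havcr1 or Vcam1 UMI. Jun (2683 and 2174 CPM) and Egr1 (153 and 115 CPM) stayed within 1.5-fold. The same list did not move alike in other classes: 11 of 19 were lower in intercalated cells, whereas 4 were higher and 1 lower of 17 in distal convoluted tubule.

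Class II antigen presentation genes were lower in proximal tubule, 9 of 10 measured, with Cd74 at 296 and 172 CPM, H2-Eb1 at 73.4 and 32.5 CPM and the master regulator Ciita at 3.21 and 1.48 CPM. All 5 macrophage gate markers were lower in the same cells (17.4 and 8.52 CPM summed), and with the highest doublet scores left out 6 of 9 class II genes were lower. The part of macrophage RNA in this result was not tested. Of 16 matrix genes measured in proximal tubule, 11 were lower, or 6 of the 10 not dominated by 1 barcode. Timp1, an inhibitor of matrix proteases, had 75 and 7 UMIs (1.38 and 0.0940 CPM), whereas Timp3, abundant in these cells, had 1854 and 2389 CPM. The list's median log2 ratio was therefore -0.94 while its summed level was 2022 CPM at day 14 and 2523 CPM at day 28.

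The remaining lists gave mixed counts in proximal tubule. Of 33 interferon response genes, 9 were higher and 8 lower, with a median log2 ratio of 0.10. The transcription factor Irf7 had 4.37 and 10.8 CPM, 2.46-fold higher (2.13 to 2.86), Iigp1 was 2.19-fold higher and Bst2 had 16.3 and 30.5 CPM. Thinned to 2000 UMIs, 7 of 18 were higher and 0 lower. Of 15 growth arrest genes 3 were lower, and Gdf15, a stress hormone, had 292 and 281 CPM. Of 18 clock genes, Arntl (4.24 and 10.1 CPM) and Npas2 were higher, while 3, among them Dbp (40.2 and 16.7 CPM) and Per3 (28.6 and 14.9 CPM), were lower; the time of day was not given. Zbtb16, a glucocorticoid target, had 24.1 and 54.3 CPM, 2.25-fold higher (2.12 to 2.40).

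Gated macrophages (841 and 493 cells) had less RNA of proliferation genes and osteopontin and more of part of the interferon response list at day 28. Of 8998 measured genes 6.37% were higher and 5.73% lower. The lowest named gene was Hist1h2ap (188 and 15.0 CPM), and Hist1h1b (90.1 and 15.4 CPM) and Hist1h2ae followed. These are histone genes of dividing cells with near-identical copies, so single members are uncertain. Ube2c, which marks mitosis, had 196 and 15 UMIs.

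Cycling macrophages were 42 of 841 (4.99%, 3.62 to 6.69) and 8 of 493 (1.62%, 0.703 to 3.17), 3.08-fold lower (1.43 to 7.59), or 2.91% and 1.09% after thinning. Of 23 proliferation genes, 13 were lower and 0 higher. With the highest doublet scores left out, 4 of 19 were lower. The direction was thus the opposite of that in proximal tubule cells of the same libraries, in which the cycling share was 7.95-fold higher.

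Spp1 had 471 and 90.4 CPM in macrophages, 5.21-fold lower (4.60 to 5.92), and was seen in 51.2% and 20.9% of them (21.0% and 8.04% after thinning, which left out 17 and 33 cells). As background, a Spp1 UMI was seen in 18.4% and 9.29% of T cells. Fn1 (fibronectin) had 136 and 38.6 CPM, 3.52-fold lower (2.90 to 4.31). Clec4e, a receptor for dead cells, had 35.0 and 7.85 CPM, and Tnfaip2 96.0 and 25.6 CPM.

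Of 24 genes of the reparative lipid-handling list, 10 were lower and 2 higher in macrophages, or 7 and 2 of the 21 not dominated by 1 barcode. Gpnmb had 103 UMIs at day 14 and 0 at day 28, so it was at least 11.9-fold lower with the same floor, with 21.4% of its UMIs in 1 barcode. Arg1 (arginase) was seen in 37 cells (4.40%, 3.12 to 6.01) and 2 cells (0.406%, 0.0492 to 1.46), against 0.164% and 0.593% of T cells, so its share at day 28 was at background. Syngr1 had 13.3 and 3.41 CPM and Fabp5, a fatty acid carrier, 125 and 59.7 CPM. The scavenger receptor Cd36 (40.7 and 97.2 CPM, 2.39-fold) and the lipase Lpl (146 and 288 CPM, 1.97-fold) were higher, but after thinning their log2 ratios were 0.55 and 0.17, under the rule. Apoe (34027 and 26373 CPM), Trem2 (334 and 240 CPM) and Igf1 (117 and 90.4 CPM) stayed within 1.5-fold.

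Of 26 inflammatory genes, 10 were lower and 2 higher in macrophages. The monocyte chemokine Ccl2 had 844 and 415 CPM, 2.03-fold lower (1.91 to 2.16), Ccl8 610 and 328 CPM, the interleukin 1 receptor antagonist Il1rn 95.4 and 37.9 CPM, and the inflammasome sensor Nlrp3 249 and 153 CPM. Il6 had 59 and 3 UMIs, 6.79-fold lower (2.21 to 33.9). Il1b (2978 and 2668 CPM), Cxcl2 (2744 and 2555 CPM), Ccl3 (721 and 920 CPM) and Ccl4 (1768 and 2256 CPM) stayed within 1.5-fold, and Tnf was higher (73.9 and 116 CPM, 1.57-fold), though under the rule without barcodes passing several gates (log2 ratio 0.51). The inflammatory list therefore did not move as a block.

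The interferon response list had 12 of 37 genes higher and 0 lower in macrophages, with a median log2 ratio of 0.50 against 0.02 over all genes. Oasl1 had 10.5 and 24.2 CPM, 2.31-fold higher (1.67 to 3.19). Cxcl10, a T cell chemokine, had 116 and 255 CPM, Irf7 95.4 and 169 CPM and Ifit3 49.5 and 89.4 CPM. Isg15 (49.5 and 73.0 CPM), Gbp2 (37.6 and 38.9 CPM) and Cxcl9 (81.2 and 83.9 CPM) stayed within 1.5-fold.

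Nonclassical class I genes were among the highest macrophage genes. H2-Q7 had 80.2 and 236 CPM, 2.94-fold higher (2.64 to 3.28), and was seen in 41.9% and 62.9% of cells. H2-Q6 had 18.5 and 91.1 CPM, 4.92-fold higher (4.03 to 6.04), and was seen in 13.6% and 33.9%. Both were seen in a larger share of cells at the lower depth of day 28, and in proximal tubule cells an H2-Q7 UMI was seen in 3.74% and 2.47% and an H2-Q6 UMI in 1.55% and 1.16%. Their reads can be split between near-identical copies, so the pair is best read as one. The classical gene H2-K1 was 1.70-fold higher (1360 and 2314 CPM), the only one of 12 class I list genes past the rule, and that list summed to 6538 and 9206 CPM, within 1.5-fold. Of 14 class II genes 2 were higher, both at under 20 CPM, and H2-Aa had 10444 and 12410 CPM.

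Ccl5, a chemokine best known from T cells, had the highest macrophage ratio, 69.5 and 408 CPM, 5.87-fold (5.31 to 6.48). It was seen in 9.27% and 11.6% of macrophages and in 3.39% and 1.5% of proximal tubule cells, and 1 barcode held 19.0% of its UMIs. T cell gate markers in macrophages summed to 18.3 and 33.1 CPM, and their part in the Ccl5 result was not tested. Umod, Fbp1, Slc4a4 and Spp2, all tubule genes, were also among the 8 highest. Proximal tubule gate markers in macrophages summed to 233 and 385 CPM (6 of 8 measured higher) and thick ascending limb markers to 15.7 and 56.0 CPM, and the part of tubule RNA in these 4 genes was not tested. Dnase1l3, a secreted nuclease, had 15.1 and 48.8 CPM.

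Of 15 genes of the resident macrophage list, Cadm1 was higher (75.9 and 129 CPM) and Folr2 and Itgam were lower. Cx3cr1 had 550 and 488 CPM. The monocyte receptor Ccr2 was seen in 51.1% and 31.8% of macrophages, or 32.0% and 21.5% after thinning, against 1.01% and 0.442% of proximal tubule cells. The metal-binding protein Mt1 had 2428 and 1036 CPM, 2.34-fold lower (2.26 to 2.44).

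**Figure D4:**
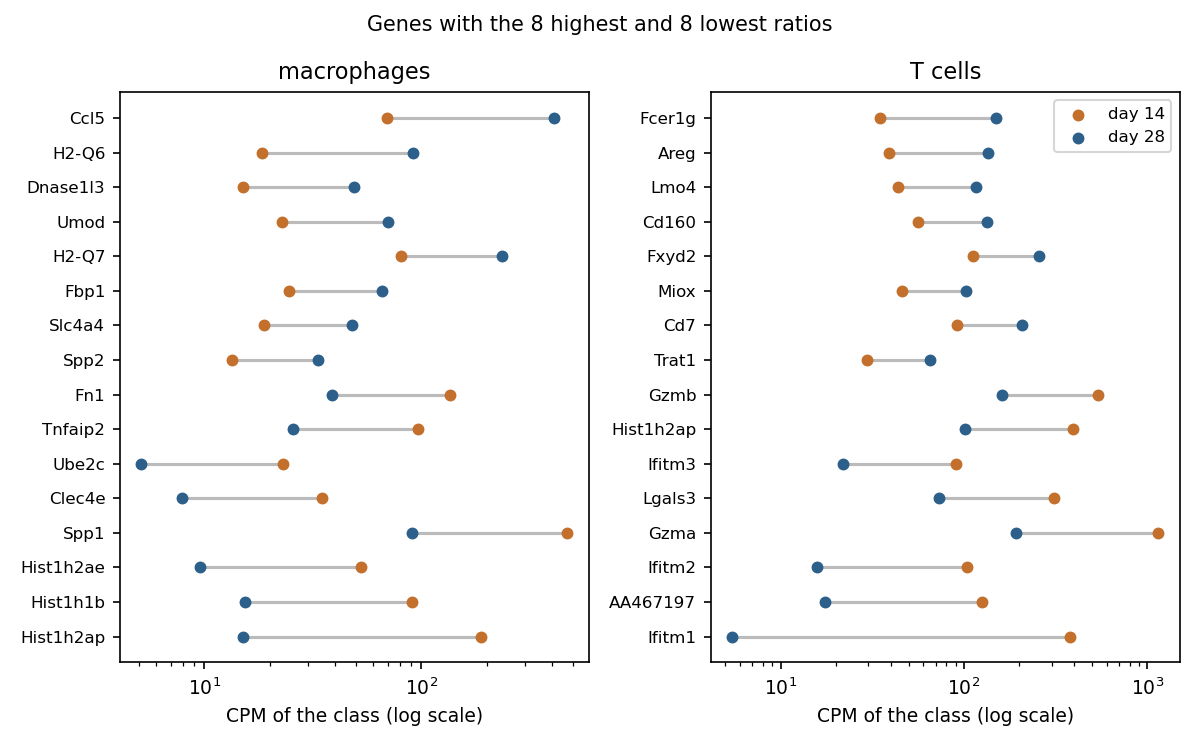
CPM (x axis, log scale) at day 14 (orange) and day 28 (blue) of the genes with the 8 highest and 8 lowest ratios in gated macrophages (left) and T cells (right), with 1 library per day. In T cells Ifitm1 went from 380 to 5.46 CPM, and in macrophages Spp1 went from 471 to 90.4 CPM and Ccl5 from 69.5 to 408 CPM.

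Gated T cells (609 and 506) had less RNA of 3 Ifitm genes and of granzymes at day 28, while most of the interferon response list stayed within 1.5-fold. Of 7030 measured genes 4.79% were higher and 4.1% lower. Ifitm1, an interferon-induced membrane protein, had 1151 UMIs at day 14 and 10 at day 28 (380 and 5.46 CPM), 69.6-fold lower (37.7 to 146). It was seen in 10.8% and 0.395% of T cells, against 0.562% and 0.0785% of proximal tubule cells. Its relatives Ifitm2 (103 and 15.8 CPM) and Ifitm3 (90.4 and 21.8 CPM) were lower as well. None of the 3 is on the interferon response list, of which 5 of 28 genes were higher and 1 lower in T cells, with a median log2 ratio of 0.29 and a summed level of 2274 and 2846 CPM. Irf7 had 43.5 and 69.3 CPM and Ifi27l2a 685 and 1088 CPM, and the lower gene, Cxcl10 (56.7 and 23.5 CPM), had 22.8% of its UMIs in 1 barcode. Of the higher genes, Isg15 came under the rule when thinned to 2000 UMIs (log2 ratio 0.33). Usp18 did so without barcodes passing several gates (0.57) and with a mitochondrial limit of 25% (0.56).

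Gzma, a granzyme of killer cells, had 1147 and 191 CPM, 6.01-fold lower (5.38 to 6.73), and Gzmb 537 and 162 CPM, 3.31-fold lower (2.93 to 3.76). A Gzmb UMI was seen in 25.0% (21.6 to 28.6) and 13.0% (10.2 to 16.3) of T cells, or 20.2% and 10.5% after thinning, which left out 15 and 39 cells, against 0.347% and 0.0393% of proximal tubule cells. Lgals3 (307 and 73.1 CPM) and AA467197 (125 and 17.5 CPM) were 4.21-fold and 7.14-fold lower. Hist1h2ap, a replication histone, was 3.88-fold lower, while cycling T cells were 20 (3.28%, 2.02 to 5.03) and 10 (1.98%, 0.952 to 3.60).

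At day 14 several of these genes met in the same cells, a description chosen after the values were seen. Of the 66 T cells with an Ifitm1 UMI, 83.3% had a Cd8a UMI, 92.4% Lgals3, 71.2% AA467197, 60.6% Gzmb, 50.0% Pdcd1 and 43.9% Gzma. Of the 543 without, the shares were 40.7%, 34.6%, 19.5%, 20.6%, 22.1% and 8.10%. The cells with Ifitm1 were deeper, with a median of 5586.5 against 4276 UMIs. At day 28, 2 T cells had an Ifitm1 UMI.

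Of 19 cytotoxic genes, 7 were lower and 0 higher. Besides the granzymes these were Ccl4 (536 and 246 CPM), Ccl3, Klrc1, Fasl and Cd8b1 (638 and 414 CPM, 1.54-fold lower). With the highest doublet scores left out, 4 of 19 were lower. Cells with a Cd8b1 UMI were 48.9% and 36.6%, or 43.3% and 33.2% after thinning, against 0.347% and 0.226% of proximal tubule cells. Ifng (186 and 186 CPM), Gzmk (87.7 and 96.0 CPM), Prf1 (43.2 and 36.6 CPM) and Ccl5 (6303 and 4696 CPM) stayed within 1.5-fold. Pdcd1, the checkpoint receptor PD-1, was seen in 25.1% (21.7 to 28.8) and 14.0% (11.1 to 17.4) of T cells, or 15.8% and 9.42% after thinning, against 0.132% and 0.137% of proximal tubule cells, and its level was 96.3 and 66.6 CPM.

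Fcer1g, Areg, Lmo4, Cd160, Cd7 and Trat1 were at the high end. Fcer1g, a signalling adaptor of innate-like lymphocytes, had 34.6 and 149 CPM, 4.32-fold higher (3.43 to 5.46), a log2 ratio of 2.10 that was 1.13 without barcodes passing several gates. It was seen in 3.78% and 10.3% of T cells and in 3.34% and 1.38% of proximal tubule cells, so the day 14 share was near background. Cd160 (56.4 and 133 CPM, 2.36-fold) and Cd7 (92.0 and 206 CPM, 2.24-fold) were higher. Trdc, the constant region of the gamma-delta receptor, was seen in 21 cells (3.45%, 2.15 to 5.22) and 40 cells (7.91%, 5.71 to 10.6), a 2.29-fold higher share (1.32 to 4.09), or 3.37% and 7.92% after thinning. In proximal tubule cells a Trdc UMI was seen in 0 cells at day 14, which allows up to 0.0496%, and in 0.118% at day 28. Of the 52 T cells with an Fcer1g UMI at day 28, 90.4% had Xcl1, 57.7% Cd160, 32.7% Klrb1c, 23.1% Trdc and 15.4% Cd8b1, a description chosen after the values were seen. Natural killer gate markers in T cells summed to 27.7 and 85.7 CPM, and the part of natural killer cells in these genes was not tested.

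Of 14 helper and regulatory genes, 3 were higher and 0 lower. Areg, a growth factor made by tissue-repair T cells, had 38.9 and 135 CPM, 3.48-fold higher (2.78 to 4.37). An Areg UMI was seen in 6.08% and 7.71% of T cells, a smaller difference, and 1 barcode held 13.7% of its UMIs. Ikzf2 had 102 and 173 CPM. Foxp3, the master gene of regulatory T cells, had 39 and 40 UMIs (12.9 and 21.8 CPM), 1.70-fold higher (1.06 to 2.71). The share of T cells with a Foxp3 UMI was 3.45% and 4.74%, a smaller difference. A Cd4 UMI was seen in 26.4% and 17.6% of T cells, or 17.0% and 11.3% after thinning, against 0.232% and 0.157% of proximal tubule cells. Of 11 residency genes, Ramp3 and Xcl1 (290 and 436 CPM) were higher and Itgae was lower, and of 11 naive and recirculating genes 2, among them Dapl1, were higher and S1pr1 was lower. Fxyd2 and Miox, also among the 8 highest in T cells, are tubule genes, and proximal tubule gate markers in T cells summed to 122 and 181 CPM.

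In thick ascending limb (227 and 315 cells), 9.88% of 7117 genes were higher and 3.43% lower, and the median log2 ratio over all genes was 0.12. Of all genes called, 74.2% were higher, but 54.8% with median-ratio scaling and 62.5% when scaled without mitochondrial genes. The median mitochondrial share of these cells was 21.2% and 11.3%. Of 24 injury genes, 15 were lower and 3 higher, but 6 lower and 2 higher of the 14 not dominated by 1 barcode. Spp1 had 10096 and 4547 CPM, 2.22-fold lower (2.17 to 2.28), and Lcn2, a urinary injury marker, 496 and 243 CPM. Egf, the growth factor made by this segment, had 2457 and 4191 CPM, 1.71-fold higher (1.65 to 1.77), and the kinase Wnk1 474 and 890 CPM. Umod (uromodulin) had 11793 and 12872 CPM. Cdkn1a was higher (78.8 and 134 CPM). Among the extremes were Adamts1 (109 and 35.1 CPM) and AC166344.1 at the low end and Lrrc31 (28.4 and 96.5 CPM) and Fkbp5, a glucocorticoid target (42.3 and 98.5 CPM), at the high end. Of 14 glucocorticoid response genes 5 were higher, with Zbtb16 at 10.7 and 45.5 CPM.

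In distal convoluted tubule (205 and 511 cells), 8.88% of 8401 genes were higher and 3.82% lower. Of the genes called, 69.9% were higher, but 49.9% with median-ratio scaling and 51.3% when scaled without mitochondrial genes, and 9 of 13 mitochondrially encoded genes were lower. Spp1 had 4080 and 1088 CPM, 3.75-fold lower (3.61 to 3.90). Of 22 genes of the distal salt and magnesium list, 2 were higher and 4 lower, with a median log2 ratio of -0.01. Among the lower ones, 3 handle calcium. S100g (calbindin D9k) had 10348 and 3709 CPM, 2.79-fold lower (2.73 to 2.85), the calcium channel Trpv5 26.9 and 7.08 CPM and the exchanger Slc8a1 106 and 61.9 CPM. Principal cell markers in this class summed to 152 and 55.3 CPM. The sodium chloride carrier Slc12a3, a gate marker, had 6262 and 8086 CPM. Sgk1, a kinase induced by aldosterone, was higher (42.2 and 81.4 CPM), as were Klhl3, Pde10a (17.8 and 52.6 CPM), Fbxo33 and Rab10os, an antisense gene whose strand was not checked. Of 14 heat shock genes 7 were higher, with Hspa1a at 521 and 1106 CPM.

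In intercalated cells (132 and 332), 7.15% of 7957 genes were lower and 3.46% higher. That was 569 and 275 genes, but 302 lower and 350 higher when barcodes passing several gates were left out. Macrophage markers in this class summed to 88.2 and 6.02 CPM and proximal tubule markers to 88.2 and 215 CPM, and their part in the results was not tested. Clu (clusterin) had 1145 and 194 CPM, 5.91-fold lower (5.40 to 6.48), with a log2 ratio of -2.56 that was -1.74 without barcodes passing several gates and -1.34 without the highest doublet scores. Ly6a had 285 and 51.0 CPM, Tmem158 162 and 30.7 CPM and Plac8 207 and 46.9 CPM. Of 19 immediate early genes 11 were lower, with Atf3 at 1512 and 706 CPM. Rhbg, an ammonium channel, was higher (432 and 664 CPM; log2 ratio 0.62, or 0.48 without barcodes passing several gates, under the rule), Slc26a7 was 2.47-fold higher (1.55 to 4.08), and Slc4a9, an anion carrier of base-secreting cells, was lower (157 and 77.6 CPM). The gate marker Slc4a1, of acid-secreting cells, had 269 and 518 CPM, and Slc26a4, of base-secreting cells, 761 and 634 CPM. Cbr2 (28.1 and 132 CPM) had the highest ratio, 4.70-fold (3.51 to 6.39), and Smim6 was 2.32-fold higher.

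In principal cells (86 and 94), 5.04% of 6087 genes were higher and 4.4% lower. Of the genes called, 53.4% were higher, but 39.1% with median-ratio scaling. The clock gene Nr1d1 had 69.3 and 17.8 CPM and the chaperone Hspa5 288 and 512 CPM. The log2 ratio of Nr1d1 was -1.91, or -1.11 without barcodes passing several gates. Macrophage markers in this class summed to 183 and 6.55 CPM, intercalated markers to 124 and 18.7 CPM and endothelial markers to 11.6 and 104 CPM. Their part in the results was not tested.

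In endothelial cells (215 and 243), 4.2% of 6326 genes were higher and 5.18% lower. Of 24 endothelial state genes, 6 were lower and 1 higher. The lower ones included the apelin receptor Aplnr (85.7 and 32.3 CPM, 2.65-fold, 1.82 to 3.95), the adhesion molecules Vcam1 (259 and 139 CPM) and Icam1 (237 and 149 CPM), Igfbp7 and the basement membrane collagen Col4a2 (582 and 343 CPM). Edn1, which encodes the vasoconstrictor endothelin 1, was higher (96.5 and 169 CPM, 1.75-fold, 1.40 to 2.20), and Nos3 had 99.4 and 96.9 CPM. Ptn (115 and 40.2 CPM) and Chst2 were at the low end and Calca (41.8 and 149 CPM), Eln (56.2 and 126 CPM), Hist1h2bc and Hist1h1c at the high end. Clock genes were lower in 5 of 9, with Dbp at 49.0 and 7.86 CPM, and Cdkn1a was higher (770 and 1312 CPM). Tagln and Acta2, smooth muscle genes, were higher only through 1 barcode that held 52.0% and 68.4% of their UMIs.

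In dendritic cells (143 and 71), 4.88% of 4915 genes were higher and 6.8% lower. None of 14 class II genes passed 1.5-fold. Of 11 heat shock genes 4 were higher, with Dnajb1 at 27.4 and 96.8 CPM, and the clock gene Nfil3 was lower (42.3 and 18.3 CPM), as it was in macrophages (93.0 and 40.6 CPM).

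A few genes moved alike in nearly every class, whatever the cell type, a description chosen after the values were seen. Of 3502 genes measured in all 9 classes, 4 were lower in all 9. They included Gstp1, a glutathione transferase (log2 ratios -1.78 to -1.16), Gm10076 (-1.58 to -1.09) and Rpl35 (-1.04 to -0.59). Erh was lower in 8. No gene was higher in all 9, and 3 were higher in 7 or more. Those were Miox in 8, Kap in 7 and Rpl10-ps3 in 7. Gm10076 and Rpl10-ps3 carry pseudogene-type names and Gstp1 has a near-identical copy, so reads can be split between copies.

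**Figure D5:**
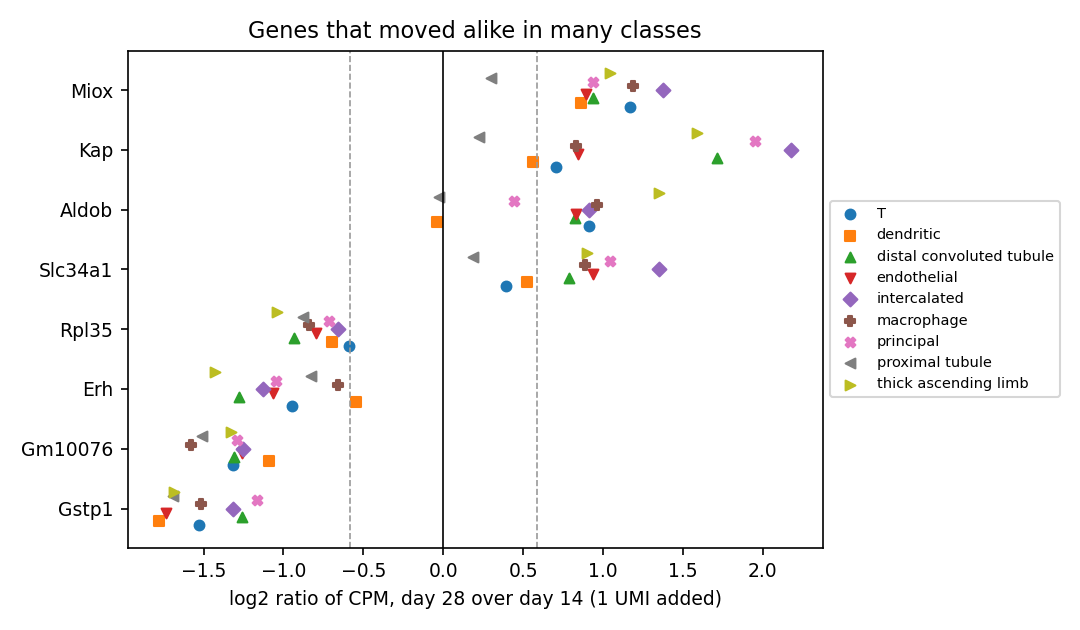
Log2 ratio of CPM, day 28 over day 14 (x axis), of 8 genes (rows) in each of 9 classes (symbols), with dashed lines at 1.5-fold. Gstp1, Gm10076 and Rpl35 are lower in all 9 classes, while Miox is higher in 8 and Kap in 7 of them.

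Miox and Kap are very abundant in proximal tubule, where their log2 ratios were 0.30 and 0.22, whereas Kap had 2.18 in intercalated and 1.59 in thick ascending limb cells. Without barcodes passing several gates these Kap values were 0.47 and 0.81. Over all kept barcodes Kap, an androgen-regulated kidney protein, had 15655 CPM at day 14 and 21468 CPM at day 28. Of a list of abundant proximal tubule RNAs, 10 of 11 were higher in macrophages and 9 of 10 in T cells. The part of free proximal tubule RNA in droplets was not tested. For Gstp1 the levels over all kept barcodes were 142 and 50.1 CPM, and the day 5 libraries had 19.0 CPM without and 30.8 CPM with Lac.z. For Rpl35 they were 1040 and 477 CPM, and 1403 and 1006 CPM at day 5. For Gstp1 the day 14 library was thus the highest of the 4.

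The class II gene Cd74, the invariant chain, was lower in several classes other than macrophages and dendritic cells. It had log2 ratios of -1.65 in T cells, -2.96 in distal convoluted tubule and -0.78 in proximal tubule, against 0.20 in macrophages and -0.04 in dendritic cells. Macrophage gate markers in T cells summed to 19.5 and 6.55 CPM, and the share of macrophages in the library was 2.52-fold lower. The part of macrophage RNA in the Cd74 values outside macrophages was not tested.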

How the data were processed

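The deposited matrices held raw counts of UMIs for each gene in each barcode (whole numbers in the values), per the file headers. Kidneys were digested with enzymes, strained and treated to lyse red blood cells, per the labels' protocols. Matrix headers named software version 3.1.0 for days 14 and 28 and 3.0.2 for both day 5 libraries, and mm10 is the build that the submitters' processing notes name. The aligner and the annotation were not given in the sources used here. Gene names came from the files, and 3 list symbols were not used because they were missing or not unique.

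From these counts, UMIs of all cells of a class were added up in each library and expressed as UMIs per 1000000 (CPM). Ratios carry exact conditional binomial 95% intervals and shares exact Clopper-Pearson 95% intervals. Genes needed 50 or more UMIs in the 2 libraries combined, in classes with at least 50 barcodes in both, and were called at 1.5-fold with 1 UMI added to each sum. Gate markers of a class were left out of its counts. Barcodes with at least 20% haemoglobin UMIs were set apart. Named genes were, among genes with at least 200 UMIs, no gate marker and no barcode over 20% of the UMIs, the 8 highest and 8 lowest ratios in proximal tubule, macrophage and T cells and the 4 highest and 4 lowest in other classes of at least 100 barcodes, plus the 2 list members farthest past 1.5-fold in each direction; other list members were chosen after their values were seen. Doublets were not removed from the reported values; leaving out the highest Scrublet scores (scanpy 1.11.5; 733 and 1599 barcodes, a share that grows with the number of barcodes) was an alternative, while the threshold that Scrublet set itself marked 79 and 194. Other alternatives changed the mitochondrial limit, gates, depth, scaling, count minimum and fold. Analyses ran in Python 3.11.15 with numpy 2.4.6, scipy 1.17.1 and pandas 2.3.3, and scripts were tested on simulated data. The comparison, cell classes and gene lists were chosen with earlier results of these data known. Results for some genes are not reported here.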

Additional observations from a re-analysis of the deposited data

How the results depend on the processing

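Each class share ratio, gene ratio and list median was recomputed under the alternatives, of which the one without cycling cells, the one without Havcr1 or Vcam1 UMIs and the one with mixtures of T cell and monocyte markers counted as T cells were chosen after seeing the data. Of the recomputed share ratios 80 stayed within the counting interval of the reported value and 4 did not. The dendritic ratio went from 0.336 to 0.571 with cells thinned to 2000 UMIs, and the distal convoluted tubule ratio from 1.69 to 2.28 with a mitochondrial limit of 25% and to 2.07 when thinned. The thick ascending limb ratio, within 1.5-fold, went from 0.940 to 1.18 with the 25% limit. No called share ratio turned direction. Of the recomputed ratios of named genes 2033 stayed within their counting interval, 251 moved and 6 were reversed. Among the list medians 1108 kept their call, 42 did not and 1 was reversed. Counts of called genes followed the rule itself. At 2-fold, 168 genes were higher and 422 lower in proximal tubule, 116 and 169 in macrophages, and 51 and 57 in T cells. With at least 200 UMIs per gene the counts were 200 and 498, 143 and 177, and 55 and 68, and with no minimum 1556 and 3213, 2824 and 1449, and 3008 and 1567. Thinning to 2000 UMIs, where fewer genes reach 50 UMIs, left 420 lower genes in proximal tubule and 296 higher and 277 lower in macrophages.

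Reversed values were those of Hbb-bs in macrophages, with log2 ratios of 1.12 without the highest doublet scores and 0.99 without cycling cells (1 barcode held 96.1% of its UMIs), Hspa1b in thick ascending limb (0.25 when thinned), Hspb1 in distal convoluted tubule (0.53, 0.64 and 0.76 without barcodes passing several gates, without the highest doublet scores and when thinned) and the abundant proximal RNA list in intercalated cells (-0.12 when thinned). The cause was not tested. Other named genes that were higher or lower but came under 1.5-fold included Slc22a7 (log2 ratio 0.51) and Npas2 (0.27) in proximal tubule and Ramp3 (0.47) in T cells when thinned, Klhl3 in distal convoluted tubule (0.50) and Xcl1 in T cells (0.34) without barcodes passing several gates, and Dapl1 in T cells (0.50) and Itgam in macrophages (-0.54) without the highest doublet scores. Spp1 in macrophages and distal convoluted tubule, -2.38 and -1.91 as reported, was -1.76 and -1.24 without the highest doublet scores. The T cell proliferation list had 1 of 21 genes lower, but 13 of 19 with the highest doublet scores left out. With 1 library per day, no library could be left out, and no paired analysis was possible because each group has a single sample.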
